A study of Homo sapiens with 2 samples.

Results

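The 39 genes described here gave more signal after miR-99a than after si-GL2 by both of their best-measured probe sets. A probe set is the group of short oligonucleotides on the array that together report on a transcript, and many genes have several. Signals were taken as log2(signal + 16), a scale that understates differences of dim genes. A probe set counted as expressed when its mean over both arrays reached the median of all 54675 probe sets, a signal of about 47.2, which is a relative limit and no detection call. A gene was chosen when its brightest expressed probe set was at least 1.5-fold higher after miR-99a, a log2 difference of 0.585, and its second brightest was above 0. Of 5842 genes with at least 2 expressed probe sets, 54 met the first condition (0.924%) and 49 met both (0.839%). Of 12 genes left out by name, 10 were among those 49 (SOX9, THBS1, FN1, IL6R, CXADR, CXCL12, CYP1B1, ENC1, SLC7A11 and RPA1), which leaves the 39. The other two left out, CLDN12 and PFKFB3, had 1 expressed probe set each.

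The cells were C4-2, a human prostate cancer line derived from LNCaP, grown in RPMI medium with serum. They were transfected for 48 h with miR-99a or with si-GL2, the small interfering RNA that served as control and is named after a luciferase reporter, using RNAiMax in both cases. Each condition was measured on 1 Affymetrix array, so there is no replicate error, no test and no p-value, and every difference below is miR-99a minus si-GL2 between those 2 arrays. The members were chosen on this same difference, so their values describe the choice and are no evidence that miR-99a raises them. In RNA of a whole culture, more cells expressing a gene and more RNA per cell cannot be told apart.

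MicroRNAs are short RNAs that guide Argonaute proteins to messenger RNAs, mostly through bases 2 to 8, called the seed, and lower the stability and translation of the bound transcripts. Direct targets of an added microRNA are therefore looked for among transcripts that go down, whereas the genes here were higher. The mature 5p strand of miR-99a is shown because it defines the treatment, from RefSeq on GRCh38.p14 (chr21:16539101-16539122, + strand), with the seed in capitals.
hsa-miR-99a-5p: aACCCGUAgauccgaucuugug
The labels say only miR-99a, and the sequence of si-GL2 was not used here.

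By their known roles the 39 genes ranged over receptors and signalling proteins, regulators of small GTPases and the cytoskeleton, transporters and enzymes, secretory pathway proteins, chromatin and transcription factors, and RNA or ribosome proteins. By the brightest probe set the differences ran from 0.59 to 1.34 with a median of 0.70, and by the second from 0.04 to 1.46 with a median of 0.50. Over all 5842 genes the medians were -0.03 and -0.01. In 17 members the second probe set was also past 1.5-fold, and in 22 it was not; of all 5842 genes, 0.462% were past 1.5-fold by both and 1.71% by the second. In 10 members the second differed by more than the brightest. The rule asked for 1.5-fold by the brightest and only for a higher signal by the second, so it favours a low count. The share of all 5842 genes was not counted, so the 10 describe the choice and no trait of these genes.

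**Figure D1:**
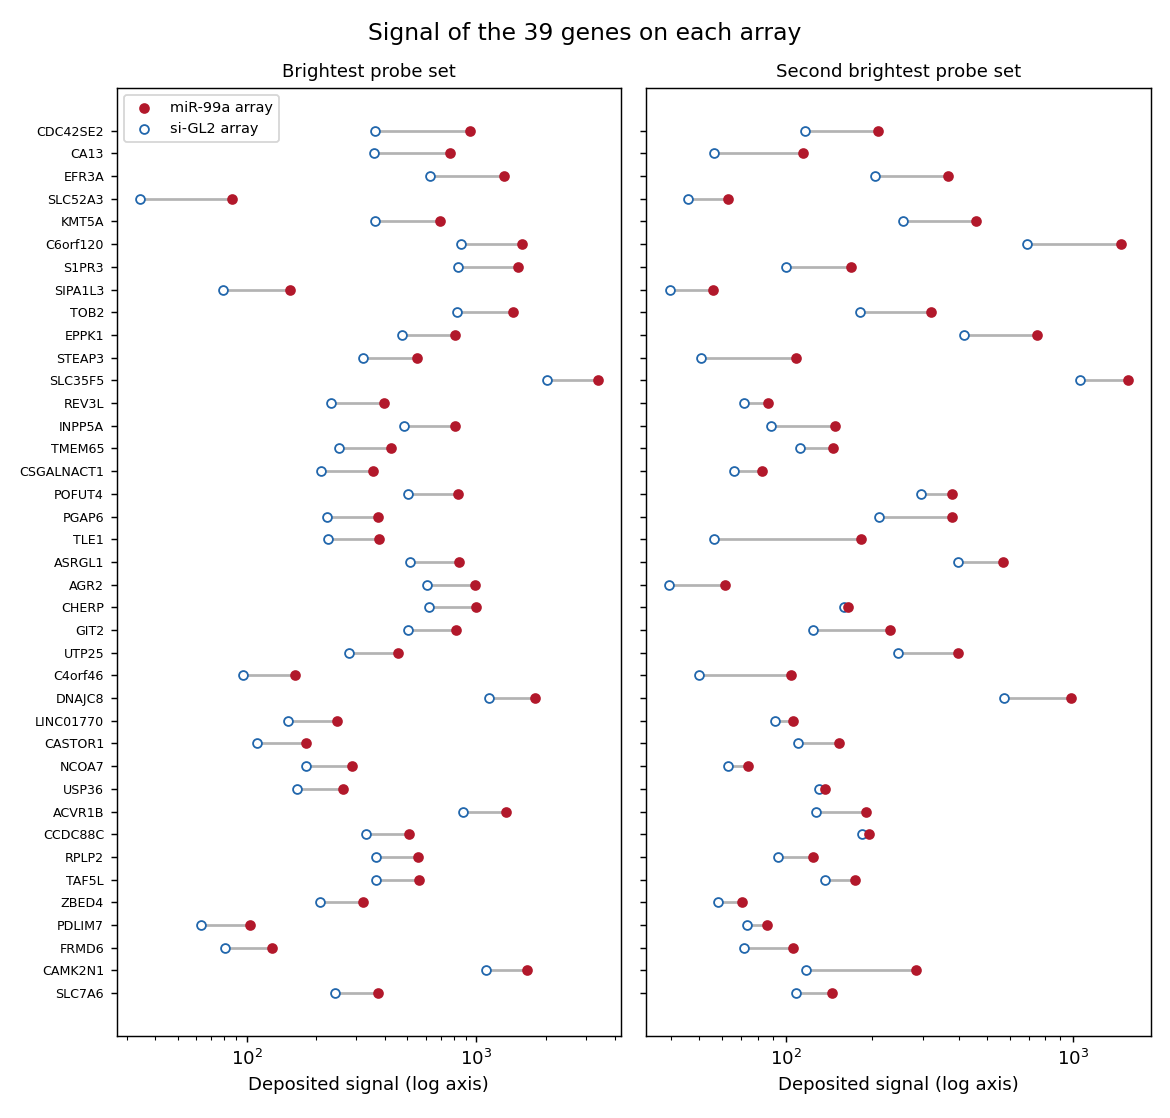
Deposited signal (log axis) of the 39 genes by the brightest probe set (left) and the second brightest (right), with filled points for the miR-99a array and open points for the si-GL2 array. The filled point lies to the right of the open one in all 78 pairs, as the rule requires, and the pairs of CHERP, USP36 and CCDC88C nearly touch on the right.

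How far probe sets of a gene disagree gives a spread within these arrays. It leaves out variation between cultures, transfections and arrays, which the probe sets of a gene share, so it is no error of the difference. Over the 5842 genes the difference by the brightest minus that by the second had an SD of 0.26 and a median size of 0.14. Among the 39 genes the median size was 0.22, larger than over all genes, and 22 lay within that SD. The exact share of the 5842 genes within it was not counted. Their median size of 0.14 lies below that SD, so most of them lay within it too. The 22 is therefore no sign of good agreement. The 2 differences had a Pearson r of 0.54 across all 5842 genes, which share the 2 arrays and are not independent. Hybridisation spikes, added equally to each array, differed by between -0.12 and 0.06 over 18 probe sets, and the medians of the arrays, 47.8 for miR-99a and 47.4 for si-GL2, by 0.01 on the log2 scale.

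**Figure D2:**
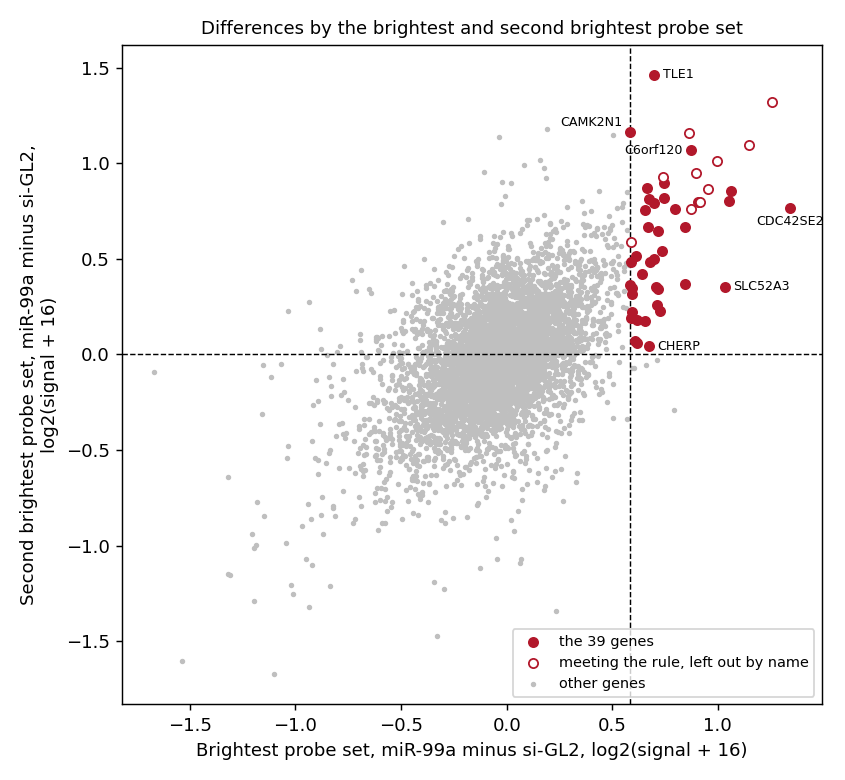
Log2 difference, miR-99a minus si-GL2, by the brightest (x axis) and second brightest (y axis) probe set of each of 5842 genes, with dashed lines at the limits of the rule. The 39 genes (filled) lie in the upper right with 10 genes left out by name (open); CDC42SE2 is at 1.34 and 0.77, TLE1 at 0.70 and 1.46, and CHERP at 0.67 and 0.04.

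Small GTPase and cytoskeleton genes held the member with the largest brightest difference. CDC42SE2, a small effector that binds the small GTPase CDC42, had a signal of 941 on the miR-99a array and 362 on the si-GL2 array (1.34) by its brightest probe set. Its second probe set read 209 after miR-99a and 116 after si-GL2 (0.77). The remaining pair of expressed probe sets were at 0.68 and 0.54, so all 4 probe sets of this gene were higher after miR-99a. Its first rank rests on the brightest probe set alone. EPPK1 encodes epiplakin, a cytolinker protein that binds keratin filaments. Its brightest probe set read 803 after miR-99a and 472 after si-GL2 (0.75), and its second 745 and 415 (0.82). GIT2, a GTPase-activating protein for ARF proteins and a scaffold at focal adhesions, read 813 after miR-99a and 504 after si-GL2 (0.67), and 230.2 and 124 by its second probe set (0.81). These 3 genes were past 1.5-fold by both. SIPA1L3, a relative of Rap GTPase-activating proteins, was at 0.84 and 0.37, with its second probe set at 55.9 after miR-99a and 39.6 after si-GL2. FRMD6, a FERM domain protein placed upstream of Hippo signalling, was at 0.59 and 0.48, and PDLIM7, an adaptor with PDZ and LIM domains on actin structures, at 0.59 and 0.19.

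Receptor and signalling genes were past 1.5-fold by both probe sets in 4 of 6 cases. EFR3A, a plasma membrane protein that anchors a phosphatidylinositol kinase complex, read 1318 after miR-99a and 627 after si-GL2 (1.05), with its second probe set at 367 and 204 (0.80). S1PR3, a G protein-coupled receptor for sphingosine 1-phosphate, read 1513 after miR-99a and 835 after si-GL2 (0.85), with 169 and 100.5 by its second (0.67). For both of these membrane proteins the probe sets differed by less than the SD between probe sets given above. INPP5A, a phosphatase that ends inositol trisphosphate signals, read 805 after miR-99a and 483 after si-GL2 (0.72), and 148 and 88.8 by its second (0.65). CAMK2N1, an inhibitor protein of the calcium/calmodulin-dependent kinase CaMKII, only just met the limit by its brightest probe set, 1664 after miR-99a and 1103 after si-GL2 (0.59). Its second read 283 after miR-99a and 117 after si-GL2 (1.17). ACVR1B, a type I receptor for activin, read 1340.2 after miR-99a and 872 after si-GL2 (0.61), with a second probe set at 0.51. CCDC88C, a Dishevelled-binding protein also called DAPLE, was at 0.61 by its brightest and 0.07 by its second (194 after miR-99a, 184 after si-GL2), so the second showed almost no difference.

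Of 8 transport and metabolism genes, 2 were past 1.5-fold by both probe sets. CA13, a cytosolic carbonic anhydrase that hydrates CO2, read 767 after miR-99a and 359 after si-GL2 (1.06), and 114 and 56.1 by its second (0.85). STEAP3, the endosomal ferrireductase of transferrin iron uptake, read 549 after miR-99a and 321 after si-GL2 (0.74), and 108 and 50.7 by its second (0.90). SLC52A3, a riboflavin transporter, had the fourth largest brightest difference (1.03) from dim signals, 86.6 after miR-99a and 34.2 after si-GL2. Its second read 62.9 after miR-99a and 45.7 after si-GL2 (0.36). SLC35F5, an orphan carrier related to nucleotide sugar transporters, read 3370.5 after miR-99a and 2019.7 after si-GL2 (0.73), and 1544 and 1056 by its second (0.54). ASRGL1, an asparaginase, was at 0.70 and 0.50. The mitochondrial membrane protein TMEM65 was at 0.72 and 0.34, and CASTOR1, the arginine sensor upstream of mTORC1, at 0.64 and 0.42. SLC7A6, an exchanger of cationic and neutral amino acids, stood nearest the limit at 0.59 and 0.36.

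Chromatin, transcription and genome maintenance supplied 6 members. KMT5A, the methyltransferase that places a single methyl group on a lysine of histone H4, was higher by each of its 4 probe sets. Its brightest read 694 after miR-99a and 363 after si-GL2 (0.91), and its second 457 and 256 (0.80). The further 2 read 398 after miR-99a and 225 after si-GL2 (0.78), and 356 and 206 (0.75), so all 4 were past 1.5-fold. TLE1, a corepressor of the Groucho family, read 376 after miR-99a and 226 after si-GL2 (0.70), and 183 and 56.1 by its second. The second difference, 1.46, was the largest among the 5842 second probe sets, but the third expressed probe set of TLE1 read 93.3 after miR-99a and 104 after si-GL2 (-0.14). REV3L, the catalytic subunit of the translesion DNA polymerase zeta, was at 0.72 and 0.23. NCOA7, a nuclear receptor coactivator, was at 0.62 and 0.18, and the SAGA complex subunit TAF5L at 0.59 and 0.32. ZBED4, a zinc finger protein with BED domains, was at 0.59 and 0.22.

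Among 6 RNA and ribosome genes, TOB2, UTP25 and DNAJC8 were past 1.5-fold by both probe sets. TOB2, an antiproliferative protein that binds the CCR4-NOT deadenylase, read 1441 after miR-99a and 821 after si-GL2 (0.80), and 319 and 181 by its second (0.76). UTP25, a factor of small ribosomal subunit assembly, read 454 after miR-99a and 279 after si-GL2 (0.67), and 398 and 245 by its second (0.67). Its further 2 expressed probe sets were at 0.62 and 0.51, so all 4 of UTP25 were higher. DNAJC8, a J domain protein found with spliceosomes, read 1789 after miR-99a and 1129.7 after si-GL2 (0.66), and 979 and 573 by its second (0.76), but a further probe set was at 0.15. CHERP, a protein linked to splicing and calcium release, was at 0.67 by its brightest and 0.04 by its second (165 after miR-99a, 159 after si-GL2). USP36, a nucleolar deubiquitinase, was at 0.62 and 0.06 (second probe set 137 after miR-99a, 131 after si-GL2). RPLP2, an acidic stalk protein of the large ribosomal subunit, read 558 after miR-99a and 364 after si-GL2 (0.59), and 124 and 93.7 by its second (0.35). A probe set outside the rule because its annotation also names the small nucleolar RNA SNORA52 read 9846 after miR-99a and 10237 after si-GL2 for RPLP2 (-0.06). That probe set was by far the brightest of those naming RPLP2, and it was not higher after miR-99a. RPLP2 is thus a member by the 2 dimmer probe sets that name it alone.

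Secretory pathway genes numbered 4. PGAP6, a phospholipase acting on GPI-anchored proteins, was past 1.5-fold by both, with 372 after miR-99a and 223 after si-GL2 (0.70) and with 379 and 212 (0.79). AGR2, a disulfide isomerase of the endoplasmic reticulum in secretory epithelia, read 987 after miR-99a and 611 after si-GL2 (0.68), with a dim second probe set at 61.3 and 39.3 (0.48). CSGALNACT1, which starts chondroitin sulfate chains, was at 0.71 and 0.26, and the fucosyltransferase POFUT4 at 0.71 and 0.35. The last 3 members are little characterised. C6orf120 read 1582 after miR-99a and 856 after si-GL2 (0.87), and 1459 and 687 by its second (1.07), one of 3 members whose second probe set passed a log2 difference of 1. C4orf46 was at 0.67 and 0.87, from 163 after miR-99a and 96.8 after si-GL2 and from 104 and 49.8. A probe set whose annotation names both C4orf46 and TOMM7 was at 0.07 (6131 after miR-99a, 5849 after si-GL2). The long non-coding RNA LINC01770 was at 0.65 and 0.18.

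Probe sets beyond those the rule used did not all lie above 0. They come from the same 2 arrays and so describe the members without adding a replicate. Of 19 further expressed probe sets, in 14 members, 13 were above 0 against 49.8% of such probe sets over all genes, and 4 were past 1.5-fold against 2.16%. The median was 0.23, and 0.00 over all genes. The 4 past 1.5-fold belonged to CDC42SE2, UTP25 and KMT5A. The 6 at or below 0 belonged to 5 members: TLE1 at -0.14, GIT2 at -0.06 (164 after miR-99a, 171 after si-GL2), NCOA7 at -0.06, USP36 at 0.00 (116 after miR-99a, 117 after si-GL2) and PDLIM7 at -0.22 and -0.28. For these 5 the name "higher by both probe sets" holds for the pair the rule read and not for every expressed probe set. Another 19 probe sets, in 10 members, were below the expression limit. Of these 10 were above 0 (52.6% over all genes) and 0 were past 1.5-fold (4.79%), with a median of 0.02, and 0.02 over all genes. GIT2 had the lowest of them at -0.73, from dim signals, 14.9 after miR-99a and 35.3 after si-GL2. As a mean over all its probe sets GIT2 was at 0.03, USP36 at -0.0089 and PDLIM7 at -0.031, the lowest 3 of the members. By that mean 37 members were above 0 and 15 were past 1.5-fold. The mean includes the pair of probe sets that the rule read, so both counts depend on the choice. Only 18 members have 3 or more probe sets, and for the rest a mean above 0 was fixed by the rule. The matching shares over all genes were not counted, so neither count is separate evidence.

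**Figure D3:**
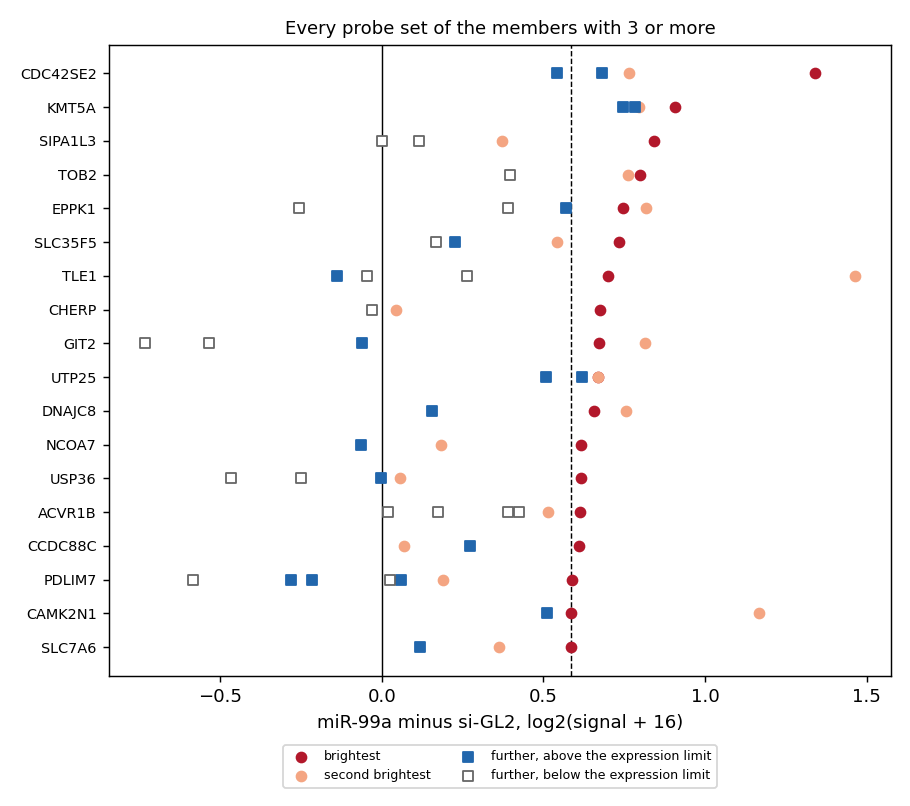
Log2 difference, miR-99a minus si-GL2, of every probe set of the 18 members that have 3 or more, with circles for the brightest and second brightest and squares for further probe sets (filled above and open below the expression limit); lines mark 0 and the 1.5-fold limit. The squares of KMT5A lie at 0.75 and 0.78, whereas those of PDLIM7 and GIT2 reach below 0.

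Values near the limits of the rule were close on either side. The 3 members with the smallest brightest differences were SLC7A6, CAMK2N1 and FRMD6, all at 0.59. Just outside stood FOXP3 (0.58), RBM47 (0.57) and TXNIP (0.57), whose second probe sets were at 0.47, 0.65 and 0.85. By the second probe set the members nearest 0 were CHERP (0.04), USP36 (0.06) and CCDC88C (0.07). Outside on that side, 5 genes were past 1.5-fold by the brightest and not above 0 by the second, among them FBXL20 (0.71 and -0.03), NUP58 (0.66 and -0.06) and RALGPS2 (0.59 and -0.07). In the other direction, 136 genes (2.33%) were at least 1.5-fold lower by the brightest probe set and below 0 by the second.

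Of the 78 probe sets the rule read, 4 had a si-GL2 signal below the expression limit and reached it in the mean through the miR-99a array, where they were high. They are both of SLC52A3 and the second of SIPA1L3 and AGR2. Probe design varied among the members. Of the 78 in all, 21 are marked _s_, a design whose oligonucleotides can match more than a single transcript, and 4 are marked _x_, a design that can cross-hybridise with unrelated sequences. Those 4 _x_ probe sets belong to UTP25, DNAJC8, LINC01770 and PDLIM7. Outside the 78, further expressed probe sets of EPPK1, CAMK2N1 and PDLIM7 are also marked _x_. RPLP2 belongs to a gene class with many processed pseudogenes, and EPPK1 is built of near-identical repeats, so their probe sets may not be specific. Which bases each probe set covers was not used here, and whether the probe sets of a gene overlap is unknown.

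Promoter sequence is a property that the choice of members did not use. RefSeq windows from 250 bases before to 50 after the start site on GRCh38.p14 were matched by gene identifier for 30 of the 39 genes, the first listed window being taken for the 7 that have several. CA13, EFR3A, EPPK1, TMEM65, CSGALNACT1, SLC52A3, INPP5A, CAMK2N1 and CHERP had none. The first 5 of these are all the members on chromosome 8, so the member shares below leave that chromosome out. The median GC content was 68.7% over the 30 members and 66.0% over the 4875 windows of genes with at least 2 expressed probe sets, which include the members. The observed over expected CpG ratio reached 0.6 in 86.7% of members and in 86.6% of those genes. The share with a high CpG ratio was thus nearly equal in both sets.

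Each motif was searched as exact letters on both strands. CACGTG, the E-box read by MYC and related factors, was in 7 of 30 member windows (23.3%), against 11.0% of the 4875 genes and 7.43% of all 27305 windows. The 7 were POFUT4, PGAP6, UTP25, DNAJC8, USP36, ACVR1B and TAF5L. GGGCGG, the GC box, was in 19 (63.3%), against 71.7% of the genes and 44.6% of all windows. CCAAT was in 10 (33.3%, against 37.1% and 35.7%), TATAAA in 2 (6.67%, against 4.78% and 12.0%) and the NF-kappaB motif, GGG, any 2 bases and TTTCC, in 1 (3.33%, against 2.01% and 1.92%). TGANTCA, the AP-1 motif, was in 0 of 30 windows, against 4.0% of the genes and 7.76% of all windows. CATTCC, which TEAD factors bind, was in 0 of 30, against 10.2% and 14.1%. By their letters TATAAA and CCAAT cannot overlap CACGTG, while GGGCGG can share end bases with CACGTG and with CCAAT. A match is a string of letters in a window and no binding site, and none of these shares was tested.

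**Figure D4:**
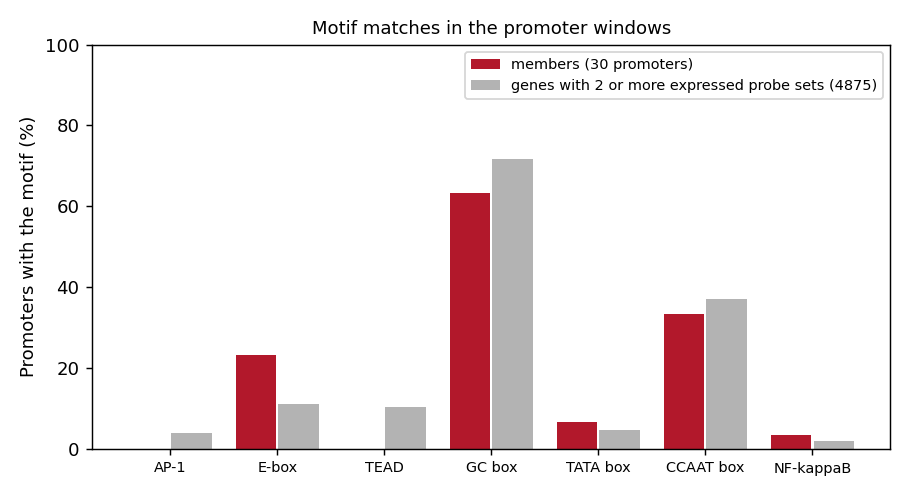
Share of promoter windows (percent) holding each motif at least once on either strand, for 30 members (dark bars) and 4875 genes with at least 2 expressed probe sets (grey bars). The E-box is in 23.3% of member windows and 11.0% of the 4875, and the members show no bar for the AP-1 and TEAD motifs.

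The 250 bases before the start site are printed for 4 members. CDC42SE2 is shown as the member with the largest difference by the brightest probe set. KMT5A is shown as the one with 4 probe sets past 1.5-fold. Each has its GC boxes in capitals. PGAP6 and DNAJC8 are shown because both of their probe sets were past 1.5-fold and an E-box, in capitals, lies before the start site.
CDC42SE2 (chr5:131263803-131264052, + strand): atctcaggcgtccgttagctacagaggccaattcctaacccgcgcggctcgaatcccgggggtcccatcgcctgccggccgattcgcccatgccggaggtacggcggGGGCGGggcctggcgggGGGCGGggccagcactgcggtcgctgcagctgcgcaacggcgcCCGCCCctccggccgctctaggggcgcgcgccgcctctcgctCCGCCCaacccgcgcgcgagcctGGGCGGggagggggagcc
KMT5A (chr12:123383882-123384131, + strand): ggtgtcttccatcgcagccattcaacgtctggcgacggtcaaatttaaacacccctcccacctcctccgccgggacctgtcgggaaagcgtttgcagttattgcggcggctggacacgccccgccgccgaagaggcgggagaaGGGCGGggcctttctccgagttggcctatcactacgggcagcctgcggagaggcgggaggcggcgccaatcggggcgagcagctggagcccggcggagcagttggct
PGAP6 (chr16:381979-382228, - strand): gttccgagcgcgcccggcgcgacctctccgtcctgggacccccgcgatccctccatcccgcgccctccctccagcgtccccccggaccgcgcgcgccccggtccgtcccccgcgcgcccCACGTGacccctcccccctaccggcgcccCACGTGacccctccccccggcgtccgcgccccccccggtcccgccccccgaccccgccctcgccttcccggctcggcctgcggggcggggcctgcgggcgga
DNAJC8 (chr1:28233030-28233279, - strand): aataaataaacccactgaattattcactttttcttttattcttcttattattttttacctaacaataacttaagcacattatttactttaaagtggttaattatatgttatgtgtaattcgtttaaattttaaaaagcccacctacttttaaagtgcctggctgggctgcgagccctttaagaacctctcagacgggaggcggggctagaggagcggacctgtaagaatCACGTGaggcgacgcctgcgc
CDC42SE2 holds 5 GC boxes in this stretch, the first beginning 143 bases before the start site and the nearest 18 bases before it. KMT5A holds 1, beginning 107 bases before. The E-boxes of PGAP6 begin 131 and 102 bases before the start site, and that of DNAJC8 begins 21 bases before it.

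By chromosome, 5 of the 39 genes (12.8%) lie on chromosome 8, which holds 3.73% of the 5842 genes. They are CA13, EFR3A, EPPK1, TMEM65 and CSGALNACT1. The median brightest difference over all 218 genes of that chromosome was -0.07, so the chromosome as a whole was not higher after miR-99a. Chromosome 1 also holds 5 members, with 10.2% of the genes, and chromosome 22 holds 3 (TOB2, CASTOR1 and ZBED4) with 2.31%. Chromosomes 3, 13, 15, 18, 21 and X hold 0, chromosome 3 with 6.08% of the genes. The chromosomes named here were picked after all had been looked at, and none of these shares was tested.

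Lists of genes that respond to common signalling routes were set beside the members, each gene by its brightest probe set. None of the 39 is on any of them. The lists are short, with 10 to 21 expressed genes each out of 12218, and SLC7A11, which met the rule, was left out by name. The absence is therefore no result about the members. Over all 12218 expressed genes the median was -0.03, with 1.21% at least 1.5-fold higher and 2.89% at least 1.5-fold lower. Targets of the Hippo effectors YAP and TAZ had a median of -0.12 over 16 expressed genes, of which 7 were above 0 and 0 past 1.5-fold either way; IGFBP3 was highest (0.35) and CCN1 lowest (-0.49). ERK feedback genes had a median of -0.07 over 11, with 0 higher and 1 lower, EGR1 (-0.73), while EPHA2 was highest (0.47). TGF-beta and SMAD response genes, a route that ACVR1B shares in part, had a median of 0.02 over 20, with 1 higher, the decoy receptor BAMBI (0.67), and 0 lower; TGIF1 was lowest (-0.55). The p53 targets had a median of 0.02 over 21, with 2 higher and 1 lower, from AEN at 0.81 to SUSD6 at -0.66. NRF2 targets had a median of 0.14 over 15, with 1 higher, SLC7A11 (0.90), which is left out by name above, and GCLC lowest at -0.30. NF-kappaB targets had a median of 0.16 over 10, with 7 above 0 and 0 past 1.5-fold, from NFKBIA at 0.52 to NFKBIB at -0.49.

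The arrays carried the markers of the labelled line. All 8 prostate luminal markers measured were expressed, among them KLK3, with 6180 after miR-99a and 6783 after si-GL2, and their median difference was -0.08. Summed over the list their signal was 32051 after miR-99a and 33317 after si-GL2. KRT8 (0.31) was highest and STEAP2 (-0.52) lowest. Signals of the marker lists of other cells summed to 570 after miR-99a and 520 after si-GL2 for 7 fibroblast markers, to 725 and 565 for 5 basal epithelial, 424 and 401 for 6 endothelial and 178 and 152 for 4 leukocyte markers. In these lists 5, 2, 3 and 2 markers were above the expression limit. ITGA6 (638 after miR-99a, 465 after si-GL2) made up most of the basal sum. The other measured basal markers were KRT5, with 20.1 after miR-99a and 14.8 after si-GL2, KRT14 (15.1 and 25.7), KRT15 (5.27 and 7.19) and ITGB4 (46.5 and 52.6). Of the fibroblast and endothelial lists, COL1A1 read 229.6 after miR-99a and 233 after si-GL2, and PECAM1 194 and 167. The part of other cells in the members' differences was not tested. The ratio of 5′ to 3′ control signal differed by -0.02 for ACTB and by 0.06 for GAPDH on the log2 scale, a comparison that reports on RNA integrity.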

How the data were processed

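Trizol was used to extract total RNA, which was biotin-labelled for Affymetrix arrays, per the labels' protocols. The deposited values are linear signal intensities, 1 for each probe set on each array. How the authors summarised the probes and scaled the arrays is not given in the sources used here. With 1 array per condition the number of arrays limits the precision, and no test was run. Intensities were transformed to log2(signal + 16) without further normalization. The platform annotation gave the gene names, and probe sets naming several genes or none stayed out, except where said. The symbols of all 39 members matched RefSeq by Entrez identifier.

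The members, role groups, gene lists, motifs and comparisons were chosen with earlier results of these data known. Both signals of a member are given where both probe sets were past 1.5-fold and for the brightest members; other members get their differences, and signals are added where the second probe set differs by under 0.1 or had a si-GL2 signal below the expression limit. The printed promoters were chosen after their values were seen. The selection code was run on simulated data in which every probe set of a changed gene rose by the same amount. That checks the code and does not measure how well the rule works on these arrays. Alternatives were pseudocounts of 1 and 64, centring on the median, quantile normalization, an expression limit at the 75th percentile or none, leaving out _x_ and _s_ probe sets, a 2-fold rule, means over probe sets, and the last 150 bases of the promoter windows. Python 3.11.15, numpy 2.4.6, pandas 2.3.3 and matplotlib 3.10.9 were used.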

Additional observations from a re-analysis of the deposited data

How the results depend on the processing

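The count of 39 genes was 46 with a pseudocount of 1, 47 with centring and 49 with quantile normalization, each including all 39. It was 26 with a pseudocount of 64 and 34 when every expressed probe set had to be above 0, in both cases members only. The last condition is added to the rule, so it could leave members only. The 25 members with 2 expressed probe sets met it in advance. A limit at the 75th percentile gave 11 genes, all members. Without a limit there were 141, including all 39. Leaving out _x_ and _s_ probe sets gave 24, of which 23 are members. CDC42SE2, whose brightest probe set is marked _s_, then went from 1.34 to 0.68, below CA13 at 1.06. A 2-fold rule left 4, and 1.5-fold by both probe sets left 17. The mean over expressed probe sets past 1.5-fold gave 30, of which 18 are members.

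Over all genes with at least 2 expressed probe sets, 54 were higher and 159 lower by the brightest. These became 62 and 130 with centring, 65 and 122 with quantile normalization, 36 and 95 with a pseudocount of 64, 33 and 110 without _x_ and _s_ probe sets, 17 and 59 at the 75th percentile, 264 and 335 without a limit, and 6 and 22 at 2-fold. Fewer or more genes are tested under the changed limits and without those probe sets. The members' median second difference was 0.76 over the 11 left at the 75th percentile. In the last 150 bases of the windows CACGTG was in 5 of 30 members (16.7%, against 6.52% of the 4875 genes), CCAAT in 3 (10.0%, against 23.5%), TATAAA in 1 (3.33%, against 2.24%) and the NF-kappaB motif in 0 (against 1.09%). As means over all probe sets USP36 (-0.0089) and PDLIM7 (-0.031) turned below 0; both include probe sets below the expression limit. Of 538 values of single members under the alternatives, 512 moved by less than the SD between probe sets (0.26) without changing sign, 24 moved further and those 2 changed sign. Part of the 512 was fixed in advance. A changed expression limit cannot alter the differences of a gene that stays in, and centring takes the same median (-0.03) from each. The 512 are therefore no measure of how stable the values are. Some medians of the gene lists changed sign, all near 0. Without _x_ and _s_ probe sets the ERK list was at 0.01 (main -0.07) and the p53 list at -0.0044 (main 0.02), without a limit the TGF-beta list was at -0.0067 (main 0.02), and by means over all probe sets the luminal markers were at 0.0004 (main -0.08). Lists with under 5 expressed genes, and the deposited intensity's background, got no alternative. No paired analysis was possible because each condition has 1 array.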

Other observations

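Averaging over a gene's expressed probe sets, in place of reading the brightest, brought in 12 genes past 1.5-fold that are not among the 39 or the genes left out by name. In each the brightest probe set was higher after miR-99a but short of 1.5-fold. FOSL2, an AP-1 subunit of the FOS family, read 253 after miR-99a and 173 after si-GL2 (0.51) by its brightest and 276 and 116 by its second (1.15). TXNIP, a thioredoxin-binding protein that restrains glucose uptake, read 3155 after miR-99a and 2119.9 after si-GL2 (0.57) and 2000.3 and 1103 by its second (0.85). UNC5B, a netrin receptor, has 3 expressed probe sets, at 0.19, 1.18 and 0.89. MFN2, a mitochondrial fusion GTPase, has 2 expressed probe sets, at 0.16 and 1.02. The chromatin protein HMGA1 was at 0.44 and 0.86, the glycosyltransferase GALNT2 at 0.40 and 0.75, and the lipoprotein receptor family member LRP8 at 0.49 and 0.65. ENPP1 was at 0.55 and 0.79, SPOPL at 0.55 and 0.77, TMCC3 at 0.55 and 0.69, and the protease CAPN2 at 0.48 and 0.72. LPIN1, a phosphatidate phosphatase, was at 0.52 and 0.40, with its mean over 3 expressed probe sets at 0.60. These genes were found by looking at the same 2 arrays, with no replicate.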
